A study of Arabidopsis thaliana with 24 samples.

Results

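The genes described here are 43 nuclear genes of Arabidopsis thaliana that encode subunits of the photosystems and of their light-harvesting antennae. They were taken by gene identifier, as the LHCA and LHCB families, the nuclear PSA and PSB subunits and PSBS, from the 32548 genes of each deposited table, and the group was chosen with earlier results of these data known. By role, 6 encode the antenna of photosystem I (LHCA1 to LHCA6), 9 the major photosystem II antenna LHCII (LHCB1.1 to LHCB1.5, LHCB2.1 to LHCB2.3 and LHCB3) and 5 the minor photosystem II antenna (LHCB4.1 to LHCB4.3, LHCB5 and LHCB6). A further 12 encode photosystem I subunits, 5 the oxygen-evolving complex, 5 small photosystem II subunits, and PSBS is a single gene. Of the 43, 42 passed the filter on low values (1 or more in 2 or more libraries) in every table and were tested. LHCB1.5 was listed at 0 in all 24 libraries.

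The 24 RNA sequencing libraries came from whole seedlings, 11 days old, raised on plates with 16 h of light and 8 h of dark. The series concerns COMPASS complexes, which methylate histone H3, and whether their members stand in for each other in controlling transcripts and cytosine methylation. The deposited tables, called sets 1 to 3 here, were normalised separately, and Col-0 of the same set served as control for each genotype, so that comparisons within a set share their Col-0 libraries. Set 1 held ino80 (INO80 encodes a chromatin remodeller) and Col-0, the wild type. Set 2 held the single mutant jmj24 (JMJ24 encodes a JmjC-domain protein), the triple mutant atx4/5;jmj24 and Col-0. Set 3 held the triple mutant jmj24/26/28, the line WDR5A_RNAi (WDR5A is a core COMPASS subunit), the double mutants atx1/2 and atx4/5, the quadruple mutants atx1/2/4/5 and atx2/3/4/5 (ATX1 to ATX5 encode histone methyltransferases) and Col-0. Every mutant is labelled homozygous for each of its alleles, the RNAi line carries the same mark, and the allele names are not given in the sources used here. Each group of a set had 2 libraries, and nothing in the labels says that these came from separate cultures, so p-values measure the spread between libraries, which may be technical. An exact permutation test of 2 libraries against 2 cannot give a 2-sided p under 0.333, and all p-values below come from limma fitted over every gene of a table and adjusted by Benjamini-Hochberg. A gene is called higher or lower at an adjusted p under 0.05, and log2 changes, each with its standard error, were computed on log2(value + 1).

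Light energy is captured by chlorophyll proteins of the LHC superfamily and passed to the reaction centres of photosystem II, which oxidises water, and photosystem I, which reduces ferredoxin. The reaction centre cores are encoded in the plastid genome, whereas all antenna proteins and many peripheral subunits are encoded in the nucleus, made in the cytosol and imported. In leaves these nuclear genes are among the most strongly transcribed, are induced by light, follow the circadian clock and depend on signals from the chloroplast. LHCII trimers of LHCB1, LHCB2 and LHCB3 hold most of the antenna chlorophyll, LHCB4 to LHCB6 link them to the core, and PSBS triggers the release of excess energy as heat.

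The deposited values are a signal that the authors brought to 1 library size per table, without scaling for gene length. Depth, estimated from the low values, ran between 18.8 and 19.0 M reads for libraries of set 1, between 24.1 and 29.0 M for those of set 2 and between 21.6 and 33.5 M for those of set 3. The genes made up a large part of each library. The share of the column total held by the 43 genes lay between 9.17 and 12.1% in set 1, between 4.06 and 5.07% in set 2 and between 8.88 and 15.03% in set 3, and 32 to 35 of them were among the 100 highest genes in sets 1 and 3 against 17 to 22 in set 2. In a bulk seedling library, fewer green cells and less RNA of a gene per cell cannot be told apart. The signal of a targeted gene was not always below Col-0 in the libraries labelled for it. The labels give genotype and not transcript level, and the cause was not tested. WDR5A was at 870.3 and 965 in the libraries labelled WDR5A_RNAi against 86.9 and 113 in Col-0. ATX3 was at 740.5 and 639.9 in those labelled atx2/3/4/5 against 388 and 384 in Col-0. ATX1 was at 568 and 191 in those labelled atx1/2/4/5 and at 181 and 181 in those labelled atx1/2, against 258 and 257 in Col-0. It was called in neither. INO80, JMJ24, JMJ26, JMJ28 and ATX4 were called lower wherever they are labelled mutant, ATX5 was called lower except in atx4/5;jmj24, and ATX2 was called lower in no line labelled for it. All 17 root tissue markers had a value of at least 1 in every library, so root tissue was present beside the green tissue.

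Per kilobase of transcript and per M of the column total, LHCB1.3 was the highest of the 43 genes in the Col-0 libraries of all 3 sets, and LHCB4.3, LHCA5 and LHCA6 were the lowest of those detected in sets 1 and 3. LHCB1.3, which encodes an LHCII protein, stood at 10250 ± 708 per M and kilobase in Col-0 of set 1, 7561 ± 143 in set 2 and 14698 ± 224 in set 3 (SD, n = 2 each). LHCB4.3, an atypical copy of the minor antenna gene LHCB4, stood at 16.0, 48.4 and 26.3 in sets 1 to 3. LHCA5 and LHCA6, which encode the scarce photosystem I antenna proteins that join it to the NDH complex, lay between 91.7 and 147 in the 3 sets. The order of neighbouring genes was not tested.

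The Col-0 levels of many antenna genes were far lower in set 2 than in set 3, although the seedlings carry the same labels. LHCB1.1 stood at 40.4 per M and kilobase in set 2 and 5348 in set 3, a 132-fold gap, and the copies LHCB2.1, LHCB2.2 and LHCB2.3 were 52.7, 59.2 and 58.5 times lower in set 2. LHCB3 was 20.7 times lower, LHCB1.2 13.8 times and LHCA4 10.3 times. The median over the 42 genes was 1.99, and the 10 genes past 5-fold were all antenna genes. No photosystem I subunit was past 2.78-fold and no gene of the oxygen-evolving complex past 1.99-fold. Sets 1 and 3 lay closer together, with ratios of set 3 to set 1 from 0.616 (PSAE1) to 1.96. The tables were normalised separately and the cause of the gap between sets was not tested. Whether it bears on the changes measured within set 2 was not tested either. LHCB2.3, for example, was at 743 and 910 in Col-0 of set 2 against 56438 and 51620 in Col-0 of set 3.

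**Figure D1:**
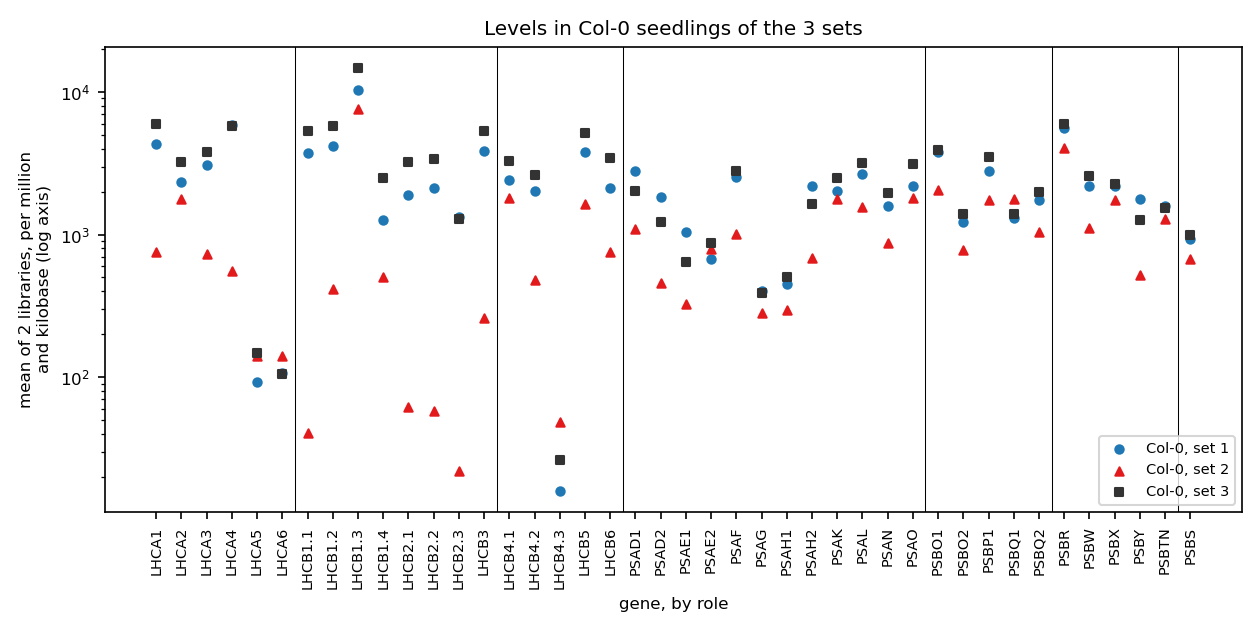
Mean level of each of the 42 detected genes in the 2 Col-0 libraries of each set, per M of the column total and per kilobase of transcript, on a log axis; circles are set 1, triangles set 2 and squares set 3, and vertical lines part the roles. The triangles of LHCB1.1, LHCB2.1, LHCB2.2, LHCB2.3 and LHCB3 lie far under the other sets. The photosystem I genes of the 3 sets lie closer than these but still differ, as with PSAD2 at 1822, 459 and 1218 in sets 1 to 3.

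Near-identical copies limit what can be said of single LHCB1 genes. The coding sequences of LHCB1.1, LHCB1.2 and LHCB1.3, neighbours on chromosome 1, have 804 bases each and differ pairwise at 29 to 35 of them, and 757 positions are alike in all 3. The stretch around their longest run of common bases is printed from TAIR10.1, whose nuclear sequence is that of the authors' build TAIR10, at chr1:10475162-10475283 (minus strand), chr1:10472516-10472637 (minus strand) and chr1:10478680-10478801 (plus strand), in the single coding exon of each gene, because it shows how a short read can match all 3 genes. Capitals mark the 4 positions of these 122 that differ among the copies, and 62 bases in a row have none.
LHCB1.1: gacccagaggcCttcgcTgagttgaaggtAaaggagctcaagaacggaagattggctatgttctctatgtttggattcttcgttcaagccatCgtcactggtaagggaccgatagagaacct
LHCB1.2: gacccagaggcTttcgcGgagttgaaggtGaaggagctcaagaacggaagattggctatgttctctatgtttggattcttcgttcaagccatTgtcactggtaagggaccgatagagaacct
LHCB1.3: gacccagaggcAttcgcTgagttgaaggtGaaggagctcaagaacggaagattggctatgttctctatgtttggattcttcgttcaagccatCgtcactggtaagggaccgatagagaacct
Of all 50-base windows of the transcripts, 20.5% of those of LHCB1.1, 10.7% of LHCB1.2, 17.02% of LHCB1.3, 13.7% of LHCB1.4, 22.7% of LHCB2.1 and 28.2% of LHCB2.2 also occur in another copy among the 43 genes. The same holds for 17.3% of the windows of LHCB1.5, whose coding sequence shares 122 bases in a row with that of LHCB1.4. Values of these genes, with the 0 of LHCB1.5, are therefore uncertain to the extent that reads were shared. How the authors treated such reads is not given in the sources used here. LHCB2.3 shares no such window. The exons of LHCB1.5 (chromosome 2, 14522524 to 14523568, minus strand) lie wholly under an annotated antisense RNA, AT2G08665, which was also at 0 in all 24 libraries. Antisense or neighbouring genes overlap 61.4% of the exonic bases of PSAG, 53.3% of PSAH1, 40.6% of LHCB2.3, 34.1% of PSAE1, 24.8% of PSAH2 and 20.4% of LHCB6, and since the strand of the libraries is not stated, reads of the overlapping genes cannot be told apart.

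The libraries labelled as the atx quadruple mutants, in which ATX1, ATX2 and ATX3 were not called lower than in Col-0, had less of every photosystem and antenna gene tested. In atx2/3/4/5 the 42 genes were all called lower than in Col-0, with a median log2 change of -0.85 (55.4% of Col-0) and a range of -1.15 for LHCB2.3 to -0.67 for LHCB4.1. In atx1/2/4/5 the 42 were also all called lower, with a median of -0.62 (65.1% of Col-0) and a range of -0.77 for PSAF to -0.36 for LHCB4.3. Many other genes were called too: 38% of the 24843 genes tested in set 3 were called in either direction in atx2/3/4/5 (20.1% lower, 17.8% higher) and 33.3% in atx1/2/4/5 (17.1% lower, 16.2% higher). Most other genes of like level were lower as well: of the 36 other genes whose mean log2 value was at or above the lower quartile of the 42, 27 were called lower and 5 higher in atx2/3/4/5, with a median log2 change of -0.70, and 24 lower and 5 higher in atx1/2/4/5, with a median of -0.47. The genes together fell to 8.88 and 9.34% of the column total in atx2/3/4/5 and to 10.5 and 10.3% in atx1/2/4/5, against 14.7 and 14.3% in Col-0.

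**Figure D2:**
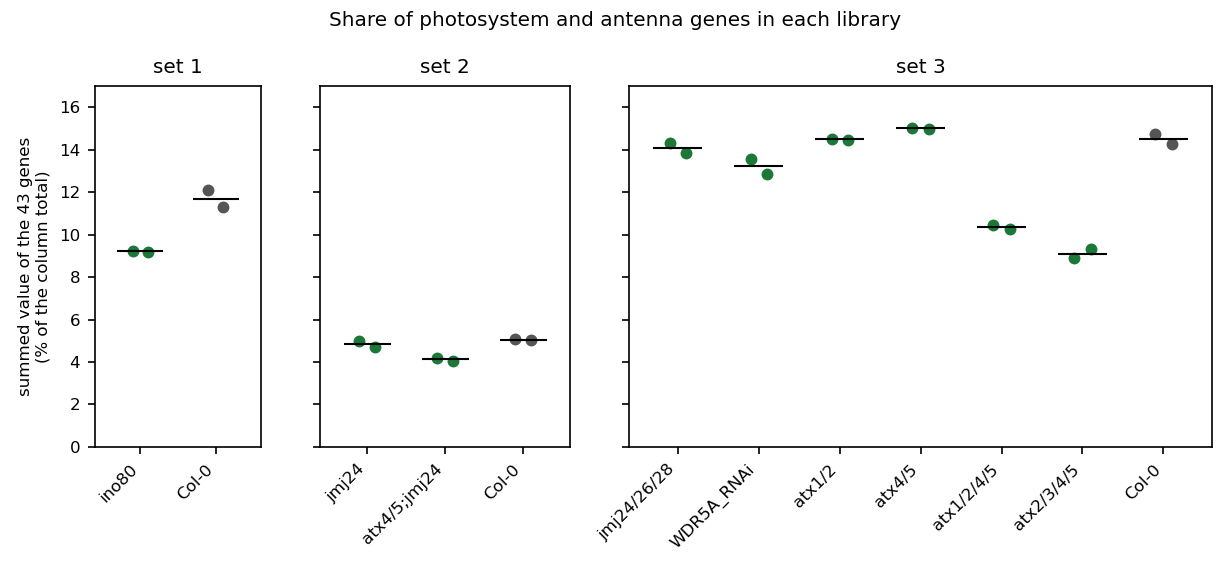
Summed value of the 43 genes as a percentage of the column total in each of the 24 libraries (points), with the mean of the 2 libraries of each group (line); the panels are the 3 sets and Col-0 stands at the right of each. Both libraries of ino80, jmj24, atx4/5;jmj24, WDR5A_RNAi, atx1/2/4/5 and atx2/3/4/5 lie under both Col-0 libraries of their set.

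Antenna genes had the smallest adjusted p-values in both quadruple mutants. LHCB2.3 (AT3G27690, chromosome 3, 10255906 to 10257489), a copy of the LHCII gene LHCB2 whose product takes part in state transitions, stood at 23951 and 24617 in atx2/3/4/5 against 56438 and 51620 in Col-0 (log2 change -1.15 ± 0.06, adjusted p = 1.95e-09). LHCB1.1 (AT1G29920, chromosome 1, 10474656 to 10475969) stood at 97967 and 105203 in atx2/3/4/5 against 205643 and 198957 in Col-0 (-0.99 ± 0.05, adjusted p = 2.76e-09). LHCA3 (AT1G61520, chromosome 1, 22699715 to 22701412), an antenna protein of photosystem I, stood at 70565 and 75593 in atx2/3/4/5 against 149671 and 142466 in Col-0 (-0.9995 ± 0.06, adjusted p = 6.08e-09). In each of the 3 both mutant libraries lay far below both Col-0 libraries. LHCB2.1 (69109 and 70523 in atx2/3/4/5, 135045 and 127881 in Col-0), LHCB3, the third LHCII protein (100529 and 106801 in atx2/3/4/5, 195680 and 187904 in Col-0), and LHCB4.2 (46837 and 51631 in atx2/3/4/5, 97174 and 94473 in Col-0) had log2 changes of -0.91, -0.89 and -0.96. These values were equally free of overlap.

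In atx1/2/4/5 the smallest adjusted p was that of LHCB1.1, at 120524 and 117567 against 205643 and 198957 in Col-0 (-0.76 ± 0.05, adjusted p = 6.02e-08). LHCA1, at 123461 and 118400 in atx1/2/4/5 against 213525 and 196554 in Col-0 (-0.76 ± 0.06), and LHCA4, at 132592 and 123414 in atx1/2/4/5 against 221829 and 206282 in Col-0 (-0.74 ± 0.06), are partners in the photosystem I antenna belt. LHCB2.1 was at 81377 and 80355 in atx1/2/4/5 against 135045 and 127881 in Col-0, and LHCA3 and LHCB2.2 had log2 changes of -0.68 each. No mutant library of these genes reached a Col-0 library.

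By role the falls were much alike. In atx2/3/4/5 the median log2 change was -0.88 over the 6 genes of the photosystem I antenna, -0.90 over the 8 tested LHCII genes, -0.74 over the 5 minor antenna genes, -0.85 over the 12 photosystem I subunits, -0.83 over the 5 genes of the oxygen-evolving complex and -0.87 over the 5 small photosystem II subunits. In atx1/2/4/5 these medians were -0.67, -0.58, -0.55, -0.63, -0.61 and -0.60 in the same order of roles. PSBS stood at 23505 and 23365 in atx2/3/4/5 and at 27875 and 28958 in atx1/2/4/5, against 44728 and 42038 in Col-0. Among photosystem I subunits the lowest in atx2/3/4/5 were PSAN and PSAF, which form the docking site for plastocyanin on the lumen side, at -1.06 each, and PSAF was also the lowest in atx1/2/4/5 (-0.77). PSBR and PSBW, small photosystem II subunits, changed by -1.02 and -0.999 in atx2/3/4/5 and by -0.73 and -0.67 in atx1/2/4/5. Antenna genes held 67.0 and 67.2% of the summed value of the 43 genes in atx2/3/4/5 and 66.5% in both libraries of atx1/2/4/5, against 65.8 and 66.7% in Col-0.

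**Figure D3:**
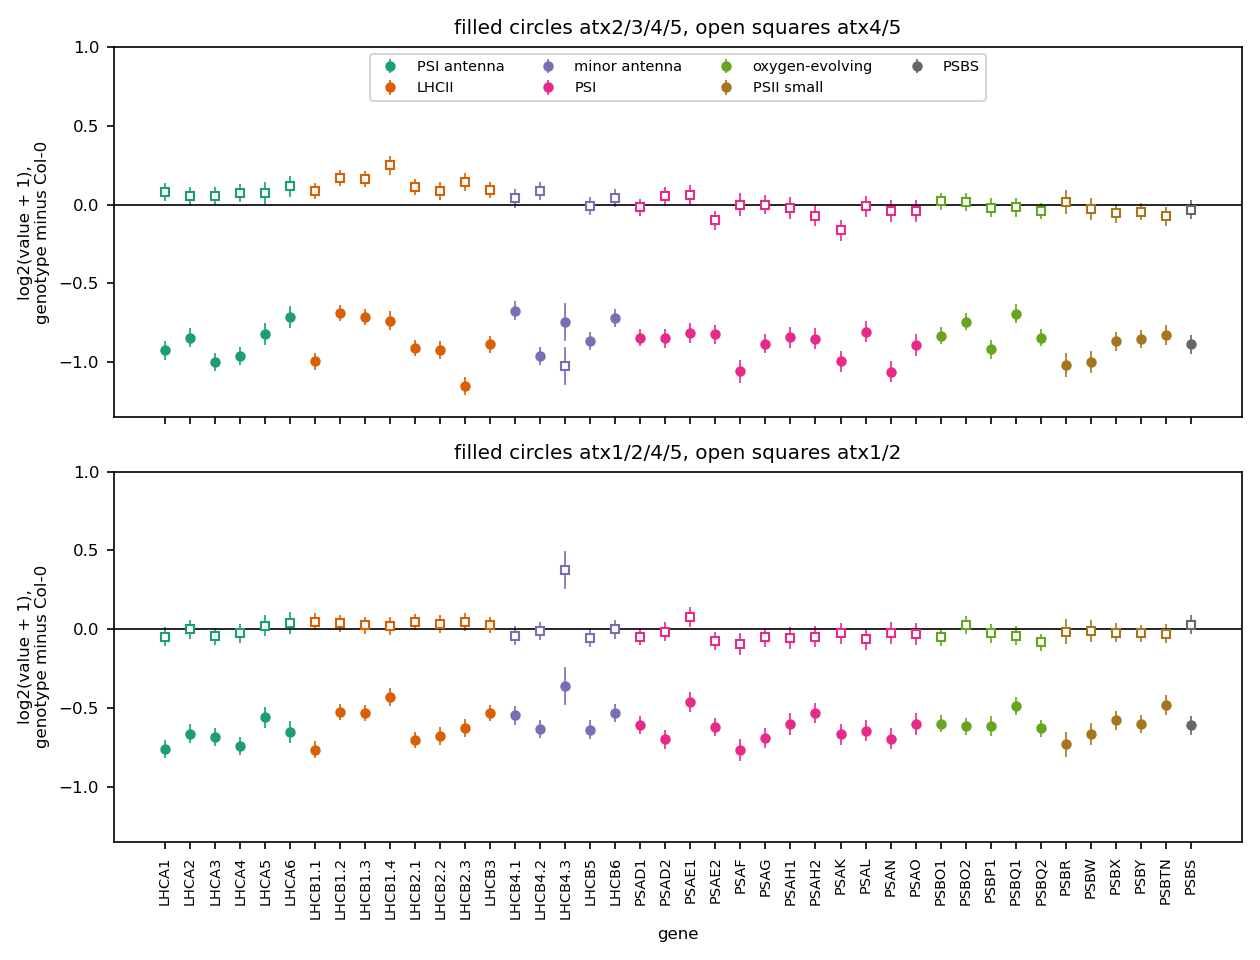
Log2 change against Col-0 of each of the 42 genes with its standard error, coloured by role; the upper panel shows atx2/3/4/5 (filled circles) with atx4/5 (open squares) and the lower panel atx1/2/4/5 (filled circles) with atx1/2 (open squares). All filled circles lie under 0. Apart from LHCB4.3, the open squares lie between -0.16 (PSAK in atx4/5) and 0.25 (LHCB1.4 in atx4/5).

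The 2 double mutants did not share the fall. In atx1/2 none of the 42 genes was called (limma, 0.282% of all genes called, 0.201% lower and 0.0805% higher), 1 had an unadjusted p under 0.05, and the median log2 change was -0.02. In atx4/5 LHCB4.3 was lower and LHCB1.4, an LHCII gene, was higher (105754 and 118583 in atx4/5, 93746 and 94856 in Col-0, log2 change 0.25 ± 0.06, adjusted p = 0.0313), 3.24% of all genes were called (2.27% lower, 0.962% higher), and the median was 0.02. The call of LHCB1.4 was lost without Col-0 replicate 1, Col-0 replicate 2 or atx4/5 replicate 2. The quadruple atx1/2/4/5 was lower than its component double atx1/2 in all 42 genes (31% of all genes called, 15.9% lower and 15.1% higher), with a median log2 change of -0.59. Against atx4/5 it was lower in 41 genes and higher in LHCB4.3 (33.4% of all genes called, 17% lower and 16.4% higher), with a median of -0.63. The quadruple atx2/3/4/5 was lower than atx4/5 in 41 genes (36.5% of all genes called, 19.1% lower and 17.5% higher), with a median of -0.87, and LHCB4.3 was not called there.

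Between the quadruple mutants, 35 of the 42 genes were higher in atx1/2/4/5 than in atx2/3/4/5 and none was called lower (15.6% of all genes called, 8.84% higher and 6.76% lower), with a median log2 difference of 0.24. Of the 36 other genes of like level, 21 were higher and 2 lower, with a median of 0.21. LHCB2.3 differed most, at 35236 and 34524 in atx1/2/4/5 against 23951 and 24617 in atx2/3/4/5 (0.52 ± 0.06, adjusted p = 2.43e-05). LHCB3 was at 132494 and 132864 in atx1/2/4/5 against 100529 and 106801 in atx2/3/4/5 (0.36 ± 0.05). LHCA6, at 2311 and 2135 in atx1/2/4/5 against 2230 and 2035 in atx2/3/4/5, overlapped. The count depended on single libraries: it was 11 without atx2/3/4/5 replicate 1, 15 without atx1/2/4/5 replicate 1, 27 without atx2/3/4/5 replicate 2 and 29 without atx1/2/4/5 replicate 2, and 10 genes were called in all of these fits, among them LHCB2.3, LHCB3, LHCA3, LHCB4.2, PSAE1, PSAN and PSBS.

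Scaling bears on the size of the change in the quadruple mutants. The column totals of set 3 ran from 25.2 to 29.2 M, and setting them equal moved the median of all genes by 0.17 in atx2/3/4/5 and 0.13 in atx1/2/4/5, while the median of the 42 genes became -0.67 and -0.48. All 42 genes in atx2/3/4/5 and 41 in atx1/2/4/5 were still called lower. Under quantile normalisation, which ties the highest values of all libraries together, the median of the 42 genes shrank to -0.39 in atx2/3/4/5 and -0.23 in atx1/2/4/5. Then 32 were called lower and 1 higher in atx2/3/4/5, with 2 of the 42 turned in sign. In atx1/2/4/5 29 were called lower and 1 higher, with 7 turned.

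The ino80 mutant had a broad but uneven fall. Of the 42 genes 38 were called lower than Col-0 and LHCB4.3 higher, where 22.4% of the 22934 genes tested in set 1 were called (11.7% lower, 10.7% higher), and the median log2 change was -0.41 (75.3% of Col-0). Of the 41 other genes of like level in set 1, 21 were called lower and 5 higher, with a median of -0.17. The 43 genes held 9.25 and 9.17% of the column total in ino80 against 12.1 and 11.3% in Col-0. LHCA5, LHCA6 and PSBS were not called: PSBS stood at 22284 and 24260 in ino80 against 29740 and 25562 in Col-0 (adjusted p = 0.0604). The count was 3 without ino80 replicate 1 and 7 without ino80 replicate 2, where the share of all genes called was 1.76 and 2.65%. It was 1 with no mean-variance trend and 0 with no filter on low values, where that share was 2.53 and 0.747%. In these 4 fits all 39 called genes kept their sign and the median of the 42 lay between -0.41 and -0.40. The size of the fall depended on the scaling. With column totals set equal 37 were called and the median of the 42 was -0.32. With quantile normalisation 24 were called, 3 turned in sign and the median was -0.16.

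Within the LHCII genes of ino80 the copies moved by different amounts. LHCB2.3 stood at 20678 and 19705 in ino80 against 39767 and 35987 in Col-0 (log2 change -0.91 ± 0.06, adjusted p = 2.41e-05). LHCB1.2 stood at 56086 and 55343 in ino80 against 105814 and 93243 in Col-0 (-0.83 ± 0.07, adjusted p = 4.49e-05), and LHCB1.4 at 19755 and 16425 in ino80 against 33633 and 31509 in Col-0 (-0.85 ± 0.09). None of these groups overlapped. The neighbouring copies LHCB1.1 and LHCB1.3 changed by -0.41 each, LHCB2.1 by -0.37 and LHCB3 by -0.32. As a share of the summed LHCB2 value, LHCB2.1 held 44.6 and 44.7% in ino80 against 37.6 and 38.2% in Col-0, and LHCB2.3 held 22.4 and 22.6% in ino80 against 27.5 and 27.9% in Col-0. LHCB1.2 held 16.8% of the summed LHCB1 value in both ino80 libraries against 20.8 and 21.1% in Col-0.

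Outside the antenna the smallest adjusted p in ino80 belonged to PSBQ2 (AT4G05180, chromosome 4, 2671523 to 2673243), a copy of the oxygen-evolving subunit PsbQ, at 25444 and 26147 in ino80 against 40548 and 38488 in Col-0 (-0.62 ± 0.05, adjusted p = 8.12e-05). PSAD1 (AT4G02770, chromosome 4, 1229031 to 1230164), which binds ferredoxin on the stromal side of photosystem I, was at 41725 and 43570 in ino80 against 63198 and 60905 in Col-0 (-0.54 ± 0.05). PSAG, a peripheral subunit of photosystem I, was at 4260 and 4323 in ino80 against 6286 and 6042 in Col-0 (-0.52 ± 0.05). The mutant libraries lay under both Col-0 libraries for all 3. All 12 photosystem I subunits, all 5 genes of the oxygen-evolving complex and all 5 small photosystem II subunits were called lower, with medians of -0.44, -0.45 and -0.33. The summed root markers stood at 8596 and 8459 in ino80 against 6877 and 6814 in Col-0. Of the 17 markers 5 were called higher and 1 lower, where 10.7% of all genes were called higher and 11.7% lower. The part of these markers in the fall was not tested.

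**Figure D4:**
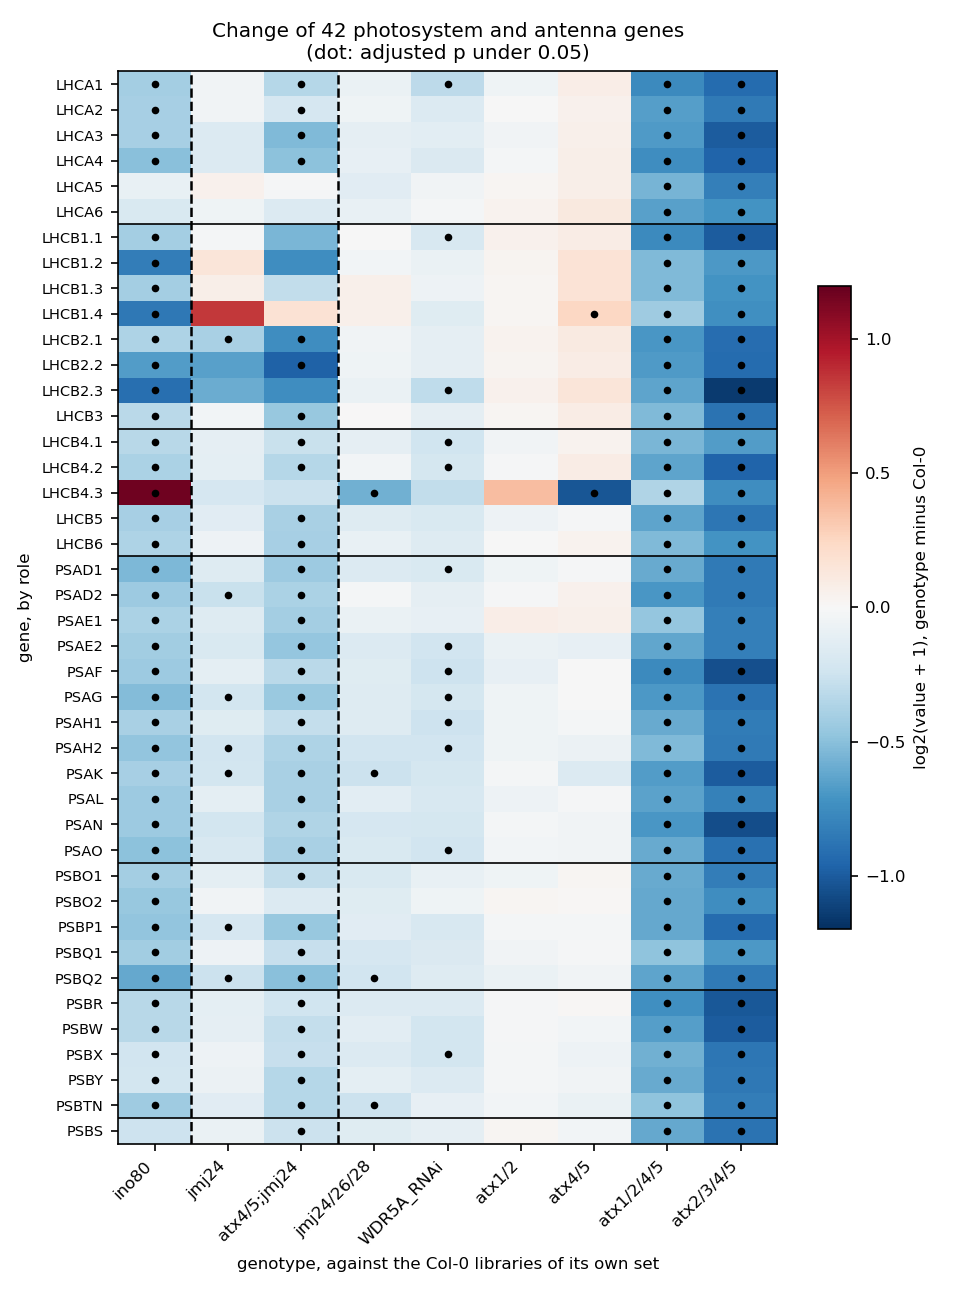
Log2 change of each of the 42 genes (rows, by role) in the 9 genotypes (columns) against Col-0 of the same set, from blue (lower) to red (higher), with a dot where the adjusted p was under 0.05; dashed lines part the sets. The columns of atx1/2/4/5 and atx2/3/4/5 are blue throughout, and LHCB4.3 is red in ino80 and blue in atx4/5.

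In set 2 many more of the genes were called lower in the triple mutant atx4/5;jmj24 than in the single mutant jmj24. In atx4/5;jmj24 33 of the 42 were called lower and none higher, where 7.71% of the 23740 genes tested were called (4.51% lower, 3.2% higher), and the median log2 change was -0.37 (77.6% of Col-0). In jmj24 7 were called lower, where 2.82% of all genes were called (1.43% lower, 1.39% higher), and the median was -0.12, with 38 of the 42 log2 changes below 0. Of the 307 other genes of like level in set 2, 64 were called lower and 24 higher in atx4/5;jmj24, with a median of -0.07, and 8 lower and 17 higher in jmj24, with a median of -0.02. The 43 genes held 4.19 and 4.06% of the column total in atx4/5;jmj24 and 4.99 and 4.69% in jmj24, against 5.07 and 5.03% in Col-0. The summed root markers stood at 7118 and 7265 in atx4/5;jmj24 and at 8007 and 8090 in jmj24, against 6542 and 6587 in Col-0, with 2 of 17 called higher in each mutant and none lower, and their part was not tested. Of the 33 genes called in atx4/5;jmj24, 24 were called with any library of either group left out, but 0 were called with no mean-variance trend or with no filter on low values. In those fits 0.88 and 0.258% of all genes were called, and the median of the 42 was -0.37 and -0.36 with all 33 signs kept. With quantile normalisation 22 were called in atx4/5;jmj24 and the median was -0.27. In jmj24 each library left out brought the count to 0 or 1.

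LHCA3 had the smallest adjusted p in atx4/5;jmj24, at 17690 and 17312 against 26092 and 24526 in Col-0 (log2 change -0.53 ± 0.05, adjusted p = 0.000103). PSAD1 was at 23270 and 23740 in atx4/5;jmj24 against 31873 and 31821 in Col-0 (-0.44 ± 0.05), and PSBP1, the oxygen-evolving subunit PsbP, at 44156 and 44934 against 62509 and 59246 in Col-0 (-0.45 ± 0.05). None of these groups overlapped. PSBQ2, LHCA4 and PSAG changed by -0.50, -0.50 and -0.45. All 12 photosystem I subunits and all 5 small photosystem II subunits were called lower, but only 3 of the 8 tested LHCII genes, although the median of the LHCII genes was -0.65. LHCB2.2 was lowest (-0.97) and LHCB1.1, LHCB1.2, LHCB1.3, LHCB1.4 and LHCB2.3 were not called.

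The 7 genes called lower in jmj24 were PSAD2, PSAG, PSAH2 and PSAK of photosystem I, PSBP1 and PSBQ2 of the oxygen-evolving complex, and LHCB2.1. PSAD2 stood at 9747 and 9084 in jmj24 against 11169 and 11450 in Col-0 (-0.27 ± 0.05, adjusted p = 0.0188). PSAH2, which is needed for LHCII to dock on photosystem I, stood at 10533 and 10573 in jmj24 against 12146 and 12646 in Col-0 (-0.23 ± 0.05, adjusted p = 0.0251). LHCB1.4 stood at 34052 and 27563 in jmj24 against 17633 and 16469 in Col-0, a log2 difference of 0.85 ± 0.15 with no overlap that missed the threshold (adjusted p = 0.0899). LHCB1.4 held 10.0 and 10.6% of the summed LHCB1 value in jmj24 and 8.36 and 8.88% in atx4/5;jmj24, against 6.05 and 6.52% in Col-0 of set 2. Against jmj24, atx4/5;jmj24 was lower in 8 of the 42 genes (0.746% of all genes called, 0.594% lower and 0.152% higher), with a median of -0.22. LHCA3 was at 17690 and 17312 in atx4/5;jmj24 against 23131 and 22108 in jmj24 (-0.37 ± 0.05, adjusted p = 0.00632), and LHCA4, LHCB5, LHCB6, PSAD1, PSAL, PSBP1 and PSBY were also called. That count was 0 without jmj24 replicate 1, jmj24 replicate 2 or atx4/5;jmj24 replicate 2, 5 without atx4/5;jmj24 replicate 1, and 17 in a fit with the replicate number as a block.

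The other lines of set 3 had small changes, mostly below 0. The 2 Col-0 libraries of set 3 themselves differed by a median log2 of 0.11 over the 42 genes. Under quantile normalisation the median change was -0.05 in WDR5A_RNAi and -0.02 in jmj24/26/28. In the libraries labelled WDR5A_RNAi, in which the WDR5A signal was above that of Col-0, 13 of the 42 genes were called lower and none higher, where 9.56% of all genes were called (5.03% lower, 4.52% higher), and the median log2 change was -0.17 (88.9% of Col-0). Of the 36 other genes of like level, 5 were called lower and 1 higher, with a median of -0.06. LHCB2.3 was at 45945 and 41403 in WDR5A_RNAi against 56438 and 51620 in Col-0 (-0.31 ± 0.06, adjusted p = 0.00382), and LHCA1 at 172923 and 157579 in WDR5A_RNAi against 213525 and 196554 in Col-0 (-0.31 ± 0.06, adjusted p = 0.00431). Both were free of overlap, and 7 of the 12 photosystem I subunits were among the 13. The summed root markers stood at 7542 and 7322 in WDR5A_RNAi against 10530 and 7961 in Col-0, and their part was not tested. The count was 0 without Col-0 replicate 1 or WDR5A_RNAi replicate 2, 16 without Col-0 replicate 2 or WDR5A_RNAi replicate 1, and 24 with the replicate block. In jmj24/26/28, 4 genes were called lower, where 3.85% of all genes were called (2.58% lower, 1.26% higher), and the median was -0.13. The 36 other genes of like level were similar, with 7 called lower, 1 higher and a median of -0.16. The 4 genes were LHCB4.3, PSBQ2 (58098 and 55189 in jmj24/26/28, 68058 and 64966 in Col-0, -0.23 ± 0.05), PSBTN, a small photosystem II subunit (28305 and 27461 in jmj24/26/28, 35187 and 31651 in Col-0, -0.26 ± 0.06), and PSAK, which lies at the antenna side of photosystem I (46230 and 45726 in jmj24/26/28, 59638 and 50448 in Col-0, -0.25 ± 0.07). The count was 0 without Col-0 replicate 1 or jmj24/26/28 replicate 1, 1 without jmj24/26/28 replicate 2, 7 without Col-0 replicate 2 and 12 with the replicate block.

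LHCB4.3 (AT2G40100, chromosome 2, 16745628 to 16747424) was the only one of the 42 called higher in ino80 and the only one called lower in atx4/5. In ino80 it was at 823 and 1040 against 441 and 382 in Col-0 (log2 change 1.17 ± 0.13, adjusted p = 0.000867). It was lower in atx4/5, at 458 and 526 against 1102 and 905 in Col-0 (-1.02 ± 0.12, adjusted p = 0.00022), and in jmj24/26/28, at 606 and 734 against the same Col-0 libraries (-0.58 ± 0.12, adjusted p = 0.0142). The calls in ino80 and atx4/5 held with any library left out. The LHCB4.3 call in ino80 was lost with no mean-variance trend and with no filter on low values. That in atx4/5 held in both of these fits. In atx1/2 LHCB4.3 stood at 1271 and 1316, above Col-0 without overlap but not called (0.37 ± 0.12, adjusted p = 0.422). In the quadruple mutants it was lower than Col-0, at 552 and 643 in atx2/3/4/5 (-0.74 ± 0.12) and at 846 and 715 in atx1/2/4/5 (-0.36 ± 0.12, adjusted p = 0.033). The call in atx1/2/4/5 was lost without Col-0 replicate 1 or atx1/2/4/5 replicate 2, and with column totals set equal (limma adjusted p = 0.271, 0.257 and 0.163). Against atx4/5, atx1/2/4/5 was higher in LHCB4.3 (0.66 ± 0.12, adjusted p = 0.000673). In WDR5A_RNAi it stood at 826 and 797 (-0.30 ± 0.12, adjusted p = 0.137). In set 2 the Col-0 libraries themselves lay far apart, at 1066 and 2224, and the values in jmj24 (1225 and 1465) and atx4/5;jmj24 (1259 and 1320) fell between them.

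In ino80 and atx4/5 the other LHCB4 copies lay much nearer to the median of the 42 genes than LHCB4.3 did. In ino80 LHCB4.1 and LHCB4.2 changed by -0.33 and -0.38, and in atx4/5 by 0.04 and 0.09. In atx2/3/4/5 LHCB4.2 changed by -0.96, beyond the lower quartile of the 42 genes (-0.93), and LHCB4.1 by -0.67, the smallest fall of the 42. LHCB4.1 held 61.8 and 63.2% of the summed LHCB4 value in atx2/3/4/5 against 57.3 and 58.2% in Col-0. LHCB4.3 held 0.899 and 1.14% of it in ino80 against 0.344 and 0.362% in Col-0 of set 1, and 0.19 and 0.223% in atx4/5 against 0.405 and 0.469% in Col-0 of set 3. The coding sequences of the 3 share no stretch longer than 23 bases, and none of the 3 shares a 50-base window with another of the genes.

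**Figure D5:**
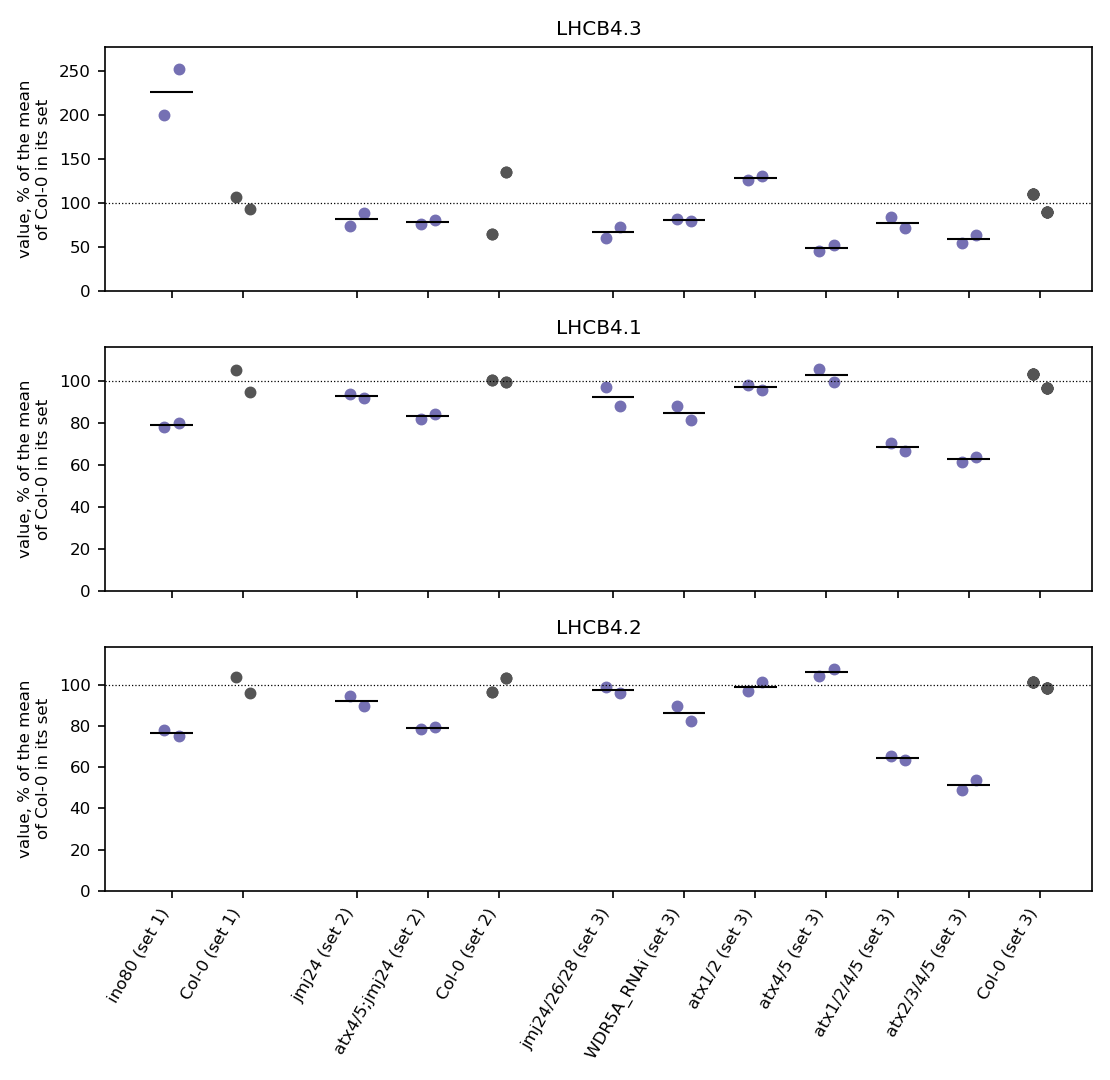
Value of LHCB4.3, LHCB4.1 and LHCB4.2 in each library (points) as a percentage of the Col-0 mean of its set, with the mean of each mutant (line); Col-0 (grey) is at the right of each set and the dotted line marks 100%. LHCB4.3 is high in ino80 and low in atx4/5, where the other copies lie on the opposite side of the line or near it.

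The 250 bases before the annotated start of each LHCB4 copy are printed from TAIR10.1 because the copies moved differently, together with those of PSBQ2, which was called lower in 6 of the 9 genotypes. They lie at chr5:208616-208865, chr3:2717307-2717556 and chr2:16745378-16745627 on the plus strand and at chr4:2673244-2673493 on the minus strand, all upstream of the transcript. Capitals mark matches on either strand to 6 motifs, the G-box CACGTG, the I-box GATAAG, the CCA1-binding site AAAAATCT, the evening element AAAATATCT, the sequence CCAATC reported in promoters of GLK targets, and TATAAA.
LHCB4.1: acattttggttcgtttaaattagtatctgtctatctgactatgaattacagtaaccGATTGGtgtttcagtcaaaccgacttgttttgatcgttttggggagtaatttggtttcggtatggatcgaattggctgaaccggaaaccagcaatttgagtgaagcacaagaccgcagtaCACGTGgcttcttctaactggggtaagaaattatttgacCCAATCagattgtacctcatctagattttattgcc
LHCB4.2: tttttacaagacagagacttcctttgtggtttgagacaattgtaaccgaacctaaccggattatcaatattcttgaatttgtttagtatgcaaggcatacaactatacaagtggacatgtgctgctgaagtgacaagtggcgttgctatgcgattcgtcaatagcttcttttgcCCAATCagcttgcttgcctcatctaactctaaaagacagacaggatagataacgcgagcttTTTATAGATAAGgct
LHCB4.3: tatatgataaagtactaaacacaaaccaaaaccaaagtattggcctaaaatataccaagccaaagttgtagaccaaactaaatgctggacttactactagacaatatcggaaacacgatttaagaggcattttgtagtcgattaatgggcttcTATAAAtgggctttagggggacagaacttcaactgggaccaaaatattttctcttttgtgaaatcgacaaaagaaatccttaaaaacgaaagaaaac
PSBQ2: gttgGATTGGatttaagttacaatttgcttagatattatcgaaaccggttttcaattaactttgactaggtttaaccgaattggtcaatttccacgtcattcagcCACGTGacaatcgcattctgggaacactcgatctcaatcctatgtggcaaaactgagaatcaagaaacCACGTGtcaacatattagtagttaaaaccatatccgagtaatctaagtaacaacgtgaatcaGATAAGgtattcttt
LHCB4.1 held 1 G-box and 2 matches to CCAATC, LHCB4.2 an I-box, CCAATC and TATAAA, and LHCB4.3 TATAAA alone. PSBQ2 held 2 G-boxes, an I-box and CCAATC, and no matches overlapped, although TATAAA and the I-box of LHCB4.2 adjoin. Over the 43 genes the G-box was present in 9 promoters (20.9%) against 5.9% of 32546 promoters of the same length, CCAATC in 11 (25.6%) against 10.4%, the I-box in 9 (20.9%) against 12.4% and the CCA1-binding site in 5 (11.6%) against 6.38%. The evening element was present in 1 (2.33%) against 2.23%, and TATAAA in 19 (44.2%) against 46.1%. These matches are descriptions of the letters in this window.

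Other nuclear genes of photosynthesis fell in the quadruple mutants too. Of all genes tested, 20.1% were called lower and 17.8% higher in atx2/3/4/5, and 17.1% lower and 16.2% higher in atx1/2/4/5. Of 10 genes of electron transport, 10 were called lower in atx2/3/4/5 and 9 in atx1/2/4/5, among them PETE2, one of the plastocyanin genes (-1.08 and -0.65), and PGRL1A of cyclic electron flow (-0.98 and -0.77). The 3 tested genes of the chloroplast ATP synthase were lower in both, as were all 4 thylakoid kinases and phosphatases, and of 12 assembly factors 12 were lower in atx2/3/4/5 and 10 in atx1/2/4/5. CAO, the signal recognition particle subunit cpSRP43 that carries antenna proteins to the thylakoid, changed by -0.80 in atx2/3/4/5 and -0.59 in atx1/2/4/5. Of 9 relatives of the antenna proteins 6 were lower and 2 higher in each quadruple mutant, and the 2 higher were the early light-induced genes ELIP1 (1.04 and 0.62) and ELIP2 (1.38 and 1.68).

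Most listed transcription regulators were lower as well, and the list holds plastid sigma factors beside factors of nuclear genes. In atx2/3/4/5 9 of 12 and in atx1/2/4/5 11 of 12 were called lower and none higher, against 20.1 and 17.1% of all genes called lower. GLK2, an activator of antenna genes, changed by -0.80 in atx2/3/4/5 and -0.68 in atx1/2/4/5, and CGA1, a GATA factor of chloroplast development, by -1.02 and -1.13. SIG5, a sigma factor of the plastid RNA polymerase, changed by -1.09 and -1.19. The summed root markers were at 9371 and 9329 in atx2/3/4/5 and at 9950 and 8761 in atx1/2/4/5, against 10530 and 7961 in Col-0. Both quadruple mutants thus lay within the Col-0 range. Of the 17 markers 1 was called higher in each and none lower. Of all genes 17.8% were called higher in atx2/3/4/5 and 16.2% in atx1/2/4/5.

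In ino80, where 11.7% of all genes were called lower and 10.7% higher, 6 of the 10 electron transport genes were lower. FD1, a ferredoxin, was higher (0.26). Of the 12 assembly factors 6 were lower, with LTD, which targets antenna proteins, at -0.95, and 1 was higher. ELIP2 and ELIP1 were higher (2.87 and 1.33), and OHP1, OHP2 and LHCB7 lower. Of the 12 regulators 5 were lower, namely the plastid sigma factors SIG2 (-0.93), SIG3 (-0.50), SIG1 (-0.34) and SIG5 (-0.74), and CGA1 (-1.03). GLK1 and GLK2 were not called. Of all genes in atx4/5;jmj24, 4.51% were called lower and 3.2% higher. There 5 of 10 electron transport genes and 3 of 12 assembly factors were lower. So were 2 of the 3 tested genes of the ATP synthase and 1 of the 4 thylakoid kinases and phosphatases. Of the 12 regulators, 1 was lower and 1 higher in that line. GLK2 was higher in atx4/5;jmj24 (0.22) and in jmj24 (0.25), where 1.39% of all genes were called higher. In WDR5A_RNAi PETE1 and PETE2 were lower (-0.22 each), SIG1 was higher (0.28) and HY5, a light-signalling factor, was lower (-0.45). In jmj24/26/28 ATPD was lower (-0.31), and ELIP1 was higher in jmj24/26/28, WDR5A_RNAi and atx4/5 (0.55, 0.47 and 0.53). In atx1/2 none of the 50 tested genes of these lists was called by limma, and LPA1 and ELIP1 had an unadjusted p under 0.05.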

How the data were processed

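The samples were 24 libraries of total RNA, per the labels' protocols sequenced in pairs of 150 bases or singly at 50, and the read type of each library is not given in the sources used here. Per the submitters' processing notes, HISAT2 2.2.0, edgeR and the genome build TAIR10 were used. The read counter, strand and filters are not given in the sources used here. The authors deposited 3 tables of normalised signal per gene, read counts adjusted to a common library size within a table by their pattern, and 0 columns lacked a sample. Raw counts were planned for, and the test for normalised values was used instead. Values were taken as log2(value + 1), genes with at least 1 in at least 2 libraries were kept, and all groups of a table were fitted together in limma 3.58.1 (R 4.3.3, mean-variance trend, robust, Benjamini-Hochberg over all genes). The fit was tested on simulated counts in which 1 setting of the spread served all genes. Whether its calls suit the spread of the real genes was not tested there. All 32548 identifiers matched the TAIR10.1 annotation. Depth is the column total over the size of 1 read, found from the low values. Replicates of a group correlated at 0.986 to 0.99 over genes. The members and gene lists were chosen with earlier results of these data known. The genes named with values in each library were up to 6 called members per comparison by adjusted p, duplicated copies and up to 3 called genes per list. LHCB1.4 in jmj24, PSBS, LHCA6, PSBR, PSBW and list genes beyond those 3 were chosen after their values were seen.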

Additional observations from a re-analysis of the deposited data

How the results depend on the processing

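Under every setting at least 33 of the 42 calls in atx2/3/4/5 and 30 of the 42 in atx1/2/4/5 were kept. The fewest were kept under quantile normalisation. Counts in the other genotypes depended on how the spread was estimated. With no filter on low values the count of called genes was 0 in ino80, jmj24, atx4/5;jmj24, jmj24/26/28 and atx4/5;jmj24 against jmj24, 2 in WDR5A_RNAi, 1 in atx4/5 and 21 between the quadruple mutants. With no mean-variance trend it was 1 in ino80, WDR5A_RNAi and atx4/5, 0 in jmj24, atx4/5;jmj24, jmj24/26/28 and atx4/5;jmj24 against jmj24, and 13 between the quadruple mutants. With quantile normalisation it was 24 in ino80, 22 in atx4/5;jmj24, 3 in atx4/5;jmj24 against jmj24, 2 in jmj24/26/28, 7 in WDR5A_RNAi and 21 between the quadruple mutants. With only the 2 groups compared in the fit it was 1 in jmj24/26/28 and atx4/5 and 0 in WDR5A_RNAi. With column totals set equal it was 4 in atx4/5;jmj24 against jmj24. With the totals of all genes but the members set equal, chosen after seeing the data, it was 20 in WDR5A_RNAi. With no filter or no trend the share of all genes called fell too, to between 0.151 and 4.96% in the comparisons named against Col-0 or jmj24, while every called gene kept its sign. The cause was not tested. Under quantile normalisation LHCA1 in atx1/2/4/5 against atx1/2 (0.0063, adjusted p = 0.933) and ATPG in ino80 (0.0472, adjusted p = 0.498) changed sign among the genes named. Over all called members 3 turned in ino80, 7 in atx1/2/4/5 against Col-0, atx1/2 and atx4/5, 2 in atx2/3/4/5 against Col-0, 3 in it against atx4/5 and 2 between the quadruple mutants.

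Leaving out 1 library gave 3 to 41 called genes in ino80, 0 to 1 in jmj24, 27 to 32 in atx4/5;jmj24, 0 to 5 in atx4/5;jmj24 against jmj24, 0 to 7 in jmj24/26/28, 0 to 16 in WDR5A_RNAi, 0 to 0 in atx1/2, 1 to 2 in atx4/5, 41 to 42 in atx1/2/4/5, 42 to 42 in atx2/3/4/5, 42 to 42 in atx1/2/4/5 against atx1/2 and against atx4/5, 41 to 41 in atx2/3/4/5 against atx4/5 and 11 to 29 between the quadruple mutants. A group left with 1 library is assumed to vary like the others.

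Over all genes same-numbered libraries did not deviate together in every pair: the correlation of replicate differences was 0.08 for the 1 pair of groups in set 2 and -0.01 to 0.11 for the 21 pairs in set 3, over 0.1 in 2 of them. Over the 42 genes, replicate 1 was above replicate 2 for 40 in Col-0, 42 in WDR5A_RNAi, 40 in jmj24/26/28, 33 in atx1/2/4/5, 29 in atx4/5, 28 in atx1/2 and 5 in atx2/3/4/5, as a hint from the data and not the design. The replicate block gave 17 called genes in atx4/5;jmj24 against jmj24, 12 in jmj24/26/28, 24 in WDR5A_RNAi and 4 in atx4/5, and no other count moved by over 1.5 times. No paired analysis was possible because of unshared numbers for ino80, jmj24 and atx4/5;jmj24 against Col-0. The limits that depth sets were not compared between genes.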
